A study of Mus musculus with 21 samples.

Results

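The effect of iodomethylcholine (IMC) on kidney RNA was examined within adenine-fed mice, by comparing 6 mice given adenine and IMC (Ade + IMC) with 6 mice given adenine alone (Ade). These 12 mice were chosen from the 21 of the series by the group and mouse number in the column names of the deposited normalized counts. The first digit of the mouse number (2, 3 or 4) was used as a block, so that each Ade + IMC mouse was compared with Ade mice of its own digit. The Ade group held 2 mice with the first digit 2, 1 with the digit 3 and 3 with the digit 4, and the Ade + IMC group held 2 with each. All mice were females without functional apolipoprotein E (apoEKO) on the C57BL/6J background, which entered the diets at an age of 4 weeks, were fed for 14 weeks and were 18 weeks old when the kidney was taken. Adenine was in the diet of both groups and IMC in that of 1. Another 5 apoEKO mice fed chow without either compound (Con) are given as levels only, since their counts came from a table that was scaled separately. The 4 Con + IMC mice were not analysed here.

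IMC inhibits the lyase with which gut bacteria release trimethylamine from choline, the precursor of trimethylamine N-oxide (TMAO). Dietary adenine is oxidised to a poorly soluble product that crystallises in kidney tubules and damages them. Along the nephron, podocytes form the filter, the proximal tubule takes back most of the filtrate, the loop of Henle builds the salt gradient of the medulla, and the distal tubule and collecting duct adjust salt, acid and water under hormonal control. Injured tubule cells lower the transporters of their segment and make injury proteins and chemokines.

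The 12 libraries held between 5444962 and 8305968 reads in genes. The nephron markers that define the kidney were present in every mouse (uromodulin, Umod, ranged from 14970 to 48390 normalized counts), while the summed lists of adrenal cortex and skeletal muscle reached at most 44.3 and 18.7. Apoe was counted in all mice (87.9 to 197 normalized counts in the adenine-fed mice), and since every group carried the deletion and the deleted part is not given in the sources used here, its level did not check the genotype. Havcr1 (kidney injury molecule 1) was 163.5 or more in each of the 12 mice and at most 6.86 in the Con mice. Mouse 407 stood apart from the other Ade mice, and was the lowest of them on the tubular injury list and the highest on the proximal tubule list. Mouse 311 of the Ade + IMC group was the lowest of its group on the distal convoluted tubule, connecting tubule, principal cell and type B intercalated cell lists and the highest on the B cell list. It was also the lowest of its group on the whole proximal tubule list and the lowest of all 12 mice on the tubular injury list. Results were therefore also computed without each mouse.

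Within adenine-fed mice, the gene with the smallest p-value was Igfbp5, a secreted binding protein of insulin-like growth factors. It ranged from 1857 through a median of 3002 to 3988 normalized counts in the Ade mice and from 3571 through 4735 to 7182 in the Ade + IMC mice. Within each digit, both Ade + IMC mice lay above all Ade mice. The rise was 0.89 ± 0.10 on the log2 scale (SE; a 1.85-fold increase; limma with the block, adjusted p = 0.0274). The Con mice lay between 4140 and 8539. By the same test, 0.905% of all 14696 genes tested were called (0.497% higher and 0.408% lower) at an adjusted p below 0.1, with log2 changes in normalized count + 1 given throughout as Ade + IMC minus Ade.

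These calls rest on the block and on the full set of mice. Without the block, limma called 0 genes, with a smallest adjusted p of 0.601 and 988 genes at an unadjusted p below 0.05, edgeR on whole reads also called 0, and DESeq2 called 37. Of the 62 called genes named here, none stayed called without mouse 207, 308, 211 or 412, 1 without mouse 208 or 212, 4 without mouse 409 and 9 without mouse 408. All 62 were called without mouse 310, 311 or 407, and 51 without mouse 410. All 62 kept their direction and an unadjusted p below 0.05 without any 1 mouse. They were chosen by small p-values in the same mice, so this was largely fixed in advance. By limma without the block, 55 of the 62 had an unadjusted p below 0.05. In the full set with the block, 7.40% (higher) and 6.26% (lower) of all genes, which were not so chosen, reached that level. Within the 3 digits the changes of the 62 genes had 1 sign, as held for 34.0% of all genes. Since the same values chose the 62, this is a description. Other fits with the block moved the threshold both ways. By edgeR 12 of the 62 were no longer called, and of the 30 named genes that limma did not call, DESeq2 called 9 and limma with array weights, which weight each library by how closely it follows the fit, 12. The p-values with the block set a change against the spread between mice that remains after the digits and groups are fitted, not against their whole spread.

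**Figure D1:**
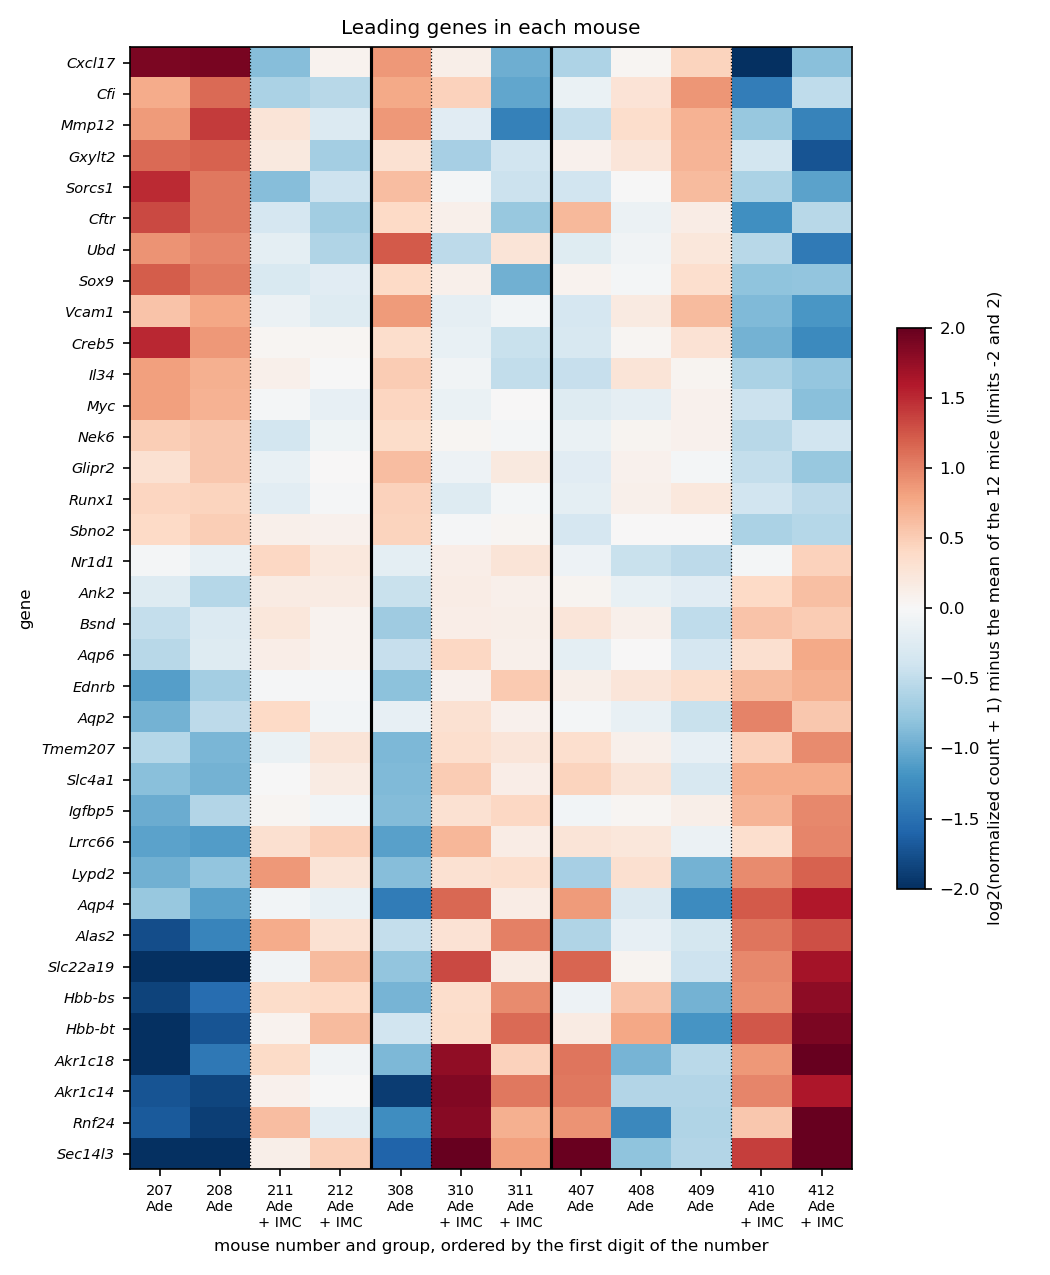
Level of 36 leading called genes (rows) in each of the 12 adenine-fed mice (columns), as log2(normalized count + 1) minus the mean of the 12 mice; red is above and blue below that mean, the colour scale stops at 2 and -2, solid lines part the first digits of the mouse number and dotted lines the groups. Within each digit most Ade + IMC columns are redder in the lower part of the map and bluer in the upper part, and mouse 407 of the Ade group is red for Sec14l3, Akr1c14 and Akr1c18.

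Genes of the collecting duct were among the leading genes that rose. Aqp2, the vasopressin-regulated water channel of principal cells, ranged from 417.9 through 653 to 783 normalized counts in the Ade mice and from 769 through 1024 to 1595 in the Ade + IMC mice. Only the lowest Ade + IMC mouse lay below the highest Ade mouse. The rise was 0.80 ± 0.14 on the log2 scale (1.75-fold, adjusted p = 0.0602), and the Con mice ranged from 869 to 2339. Aqp4, the exit channel for water at the basolateral side of the same cells, rose by 1.45 ± 0.33 on the log2 scale (2.74-fold, adjusted p = 0.0937). Its levels of 109 to 370 normalized counts in the Ade + IMC mice remained below the 973 to 1976 of the Con mice, and without mouse 407, at 220.5 the highest Ade mouse, the other Ade mice lay between 45.3 and 99.5. By edgeR with the block, Aqp4 did not pass the threshold (adjusted p = 0.122). Aqp3, the second basolateral water channel, had a log2 change of 0.58 ± 0.15 and did not pass the test by limma (adjusted p = 0.129) or edgeR (0.143), but passed with the block by DESeq2 (0.0220) and by array weights (0.0286). Aqp3 and the sodium channel subunit Scnn1g were named after their values were seen. Scnn1g had a log2 change of 0.17 ± 0.15 (adjusted p = 0.650). Its Ade + IMC mice spread from 270.8 to 529.6, beyond the 333.6 to 418.9 of the Ade mice on both sides.

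The principal cell list held 14 genes, of which 13 were tested and Avpr2, the vasopressin receptor, was too low. All 13 had log2 changes above 0, with a median of 0.44 (range 0.15 to 1.45) beside a median of 0.00 for all genes. Of the 13, 2 rose (Aqp2 and Aqp4) and 0 fell. The median was 0.31, 0.32 and 0.55 within the digits 2, 3 and 4. The list score, the mean over the list of each mouse's log2 level minus the mean of the 12 mice, ranged from -0.50 to -0.05 in the Ade mice, from -0.21 to 0.59 in the Ade + IMC mice and from 0.39 to 1.02 in the Con mice. In all, 5 Ade + IMC mice scored above every Ade mouse (mouse 212 by less than 0.01), and mouse 311 did not. In these bulk samples, more cells of a type and more RNA per cell cannot be told apart.

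A pair of genes of type A intercalated cells, which secrete acid, rose as well. Aqp6, an intracellular channel of these cells, ranged from 483 through 573 to 710.1 normalized counts in the Ade mice and from 745 through 826 to 1194 in the Ade + IMC mice. The groups did not overlap, as held for 0.204% of all genes tested. The rise was 0.64 ± 0.10 on the log2 scale (1.56-fold, adjusted p = 0.0599), and the Con mice ranged from 607 to 1010. Slc4a1, the chloride-bicarbonate exchanger of the basolateral membrane, rose by 0.88 ± 0.14 (1.84-fold, adjusted p = 0.0599). Slc4a1 is also a red cell gene, and the haemoglobin genes moved with it, whose part in its change was not tested. Kit and Dmrt2, 2 further markers of the type, had log2 changes of 0.01 and -0.02. Of the 6 genes of the type A list 2 rose and 0 fell, with a median of 0.53. The 5 genes of the type B list had a median of 0.45 with 0 called, among them pendrin (Slc26a4, 0.68 ± 0.22, adjusted p = 0.189), which passed with the block by DESeq2 (0.0493) and by array weights (0.0498). The 8 tested genes shared by both types had a median of 0.26 with 0 called, and the carbonic anhydrase Car2 had a log2 change of -0.21 ± 0.14 (adjusted p = 0.558). Within the digit 3 the medians of the type B list and of the shared list were -0.33 and -0.24.

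In the thick ascending limb of the loop of Henle, Bsnd and Tmem207 rose. Bsnd, which encodes the membrane protein barttin, ranged from 378 through 477 to 729 normalized counts in the Ade mice and from 650.4 through 702 to 921 in the Ade + IMC mice. Within each digit both Ade + IMC mice lay above all Ade mice. The rise was 0.63 ± 0.12 on the log2 scale (1.55-fold, adjusted p = 0.0602). Tmem207, a membrane protein of the thick limb, rose by 0.82 ± 0.15 (1.76-fold, adjusted p = 0.0602). The transporter that drives salt uptake there, Slc12a1, ranged from 4033 to 10670 in the Ade mice and from 8411 to 11400 in the Ade + IMC mice. Its log2 change of 0.70 ± 0.17 did not pass the test by limma (adjusted p = 0.122), but passed with the block by DESeq2 (0.00629) and by array weights (0.0355). The change was 0.77, 1.36 and 0.27 within the digits 2, 3 and 4, and at the lowest 0.50 without 1 mouse. Umod, the most abundant gene of the list, had a log2 change of 0.43 ± 0.22 (adjusted p = 0.429), which was 0.28, 1.33 and 0.05 within the digits and 0.15 without mouse 308, and 19.5% of its exonic bases overlap Gm44588 on the other strand. Slc12a1 and Umod were named after their values were seen.

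The thick ascending limb list had a median log2 change of 0.43 over 13 genes, of which 12 were above 0, 2 rose and 0 fell. Egf, the growth factor precursor made in this segment, had the largest change of the list (1.19 ± 0.30, adjusted p = 0.126), with values of 1.97, 1.92 and 0.14 within the digits 2, 3 and 4. The scores ranged from -0.74 to 0.30 in the Ade mice, from -0.06 to 0.38 in the Ade + IMC mice and from 0.24 to 0.80 in the Con mice. The thin limb list (5 genes, 1 of them called higher) had a median of 0.41, with -0.10 within the digit 2. Slc14a2, the urea transporter of this list, had a log2 change of 0.41 ± 0.22 (adjusted p = 0.456), which was -0.17, 1.37 and 0.35 within the digits and 0.12 without mouse 308. Genes raised by a hypertonic medium, a list of 6, had a median of 0.32 and 0 called.

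Among genes outside the segment lists, Prox1 and Esrrb, transcription regulators that were picked out after their values were seen, rose by 0.86 ± 0.17 (adjusted p = 0.0627) and 0.93 ± 0.17 (adjusted p = 0.0602). Within the digits 2, 3 and 4 the change was 0.55, 1.73 and 0.63 for Prox1 and 0.83, 1.68 and 0.59 for Esrrb. Both were largest within the digit 3, which held 1 Ade mouse. Ppp1r1b, an inhibitor of protein phosphatase, rose by 0.95 ± 0.17 (adjusted p = 0.0602). It overlaps 1700003D09Rik on the other strand over 15.7% of its exonic bases. Nr3c2, the mineralocorticoid receptor, rose by 0.40 ± 0.09 (1.32-fold, adjusted p = 0.0947), but did not pass by edgeR with the block (0.113). Ednrb, the B type endothelin receptor of collecting duct and endothelium, rose by 0.75 ± 0.13 (1.68-fold, adjusted p = 0.0602), and Edn3, an endothelin, by 0.75 ± 0.15 (1.69-fold, adjusted p = 0.0627). Ren1, the renin gene of the juxtaglomerular cells, rose by 0.78 ± 0.16 (1.72-fold, adjusted p = 0.0627), from a median of 429 to one of 738. Within the digit 4 its change was 0.39, and the Con mice ranged from 101 to 1522. Edn3, Ren1, Ppp1r1b and Nr3c2 were also named after their values were seen.

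Further genes with small p-values were Ank2, a membrane anchor protein, Lrrc66, a leucine-rich repeat protein, and Lypd2, a small surface protein. Ank2 ranged from 74.4 to 116 normalized counts in the Ade mice and from 119 to 169 in the Ade + IMC mice. These groups did not overlap, and the rise was 0.59 ± 0.09 on the log2 scale (adjusted p = 0.0599). Lrrc66 rose by 1.09 ± 0.19 (2.13-fold, adjusted p = 0.0602). Lypd2 was low, from 10.4 to 26.7 normalized counts in Ade and from 25.7 to 49.3 in Ade + IMC mice, and rose by 1.40 ± 0.23 (adjusted p = 0.0602). Kcnt1, a sodium-activated potassium channel named after its values were seen, ranged from 61.6 to 114 in the Ade mice and from 130.3 to 365 in the Ade + IMC mice, again without overlap (1.24 ± 0.23, adjusted p = 0.0602).

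**Figure D2:**
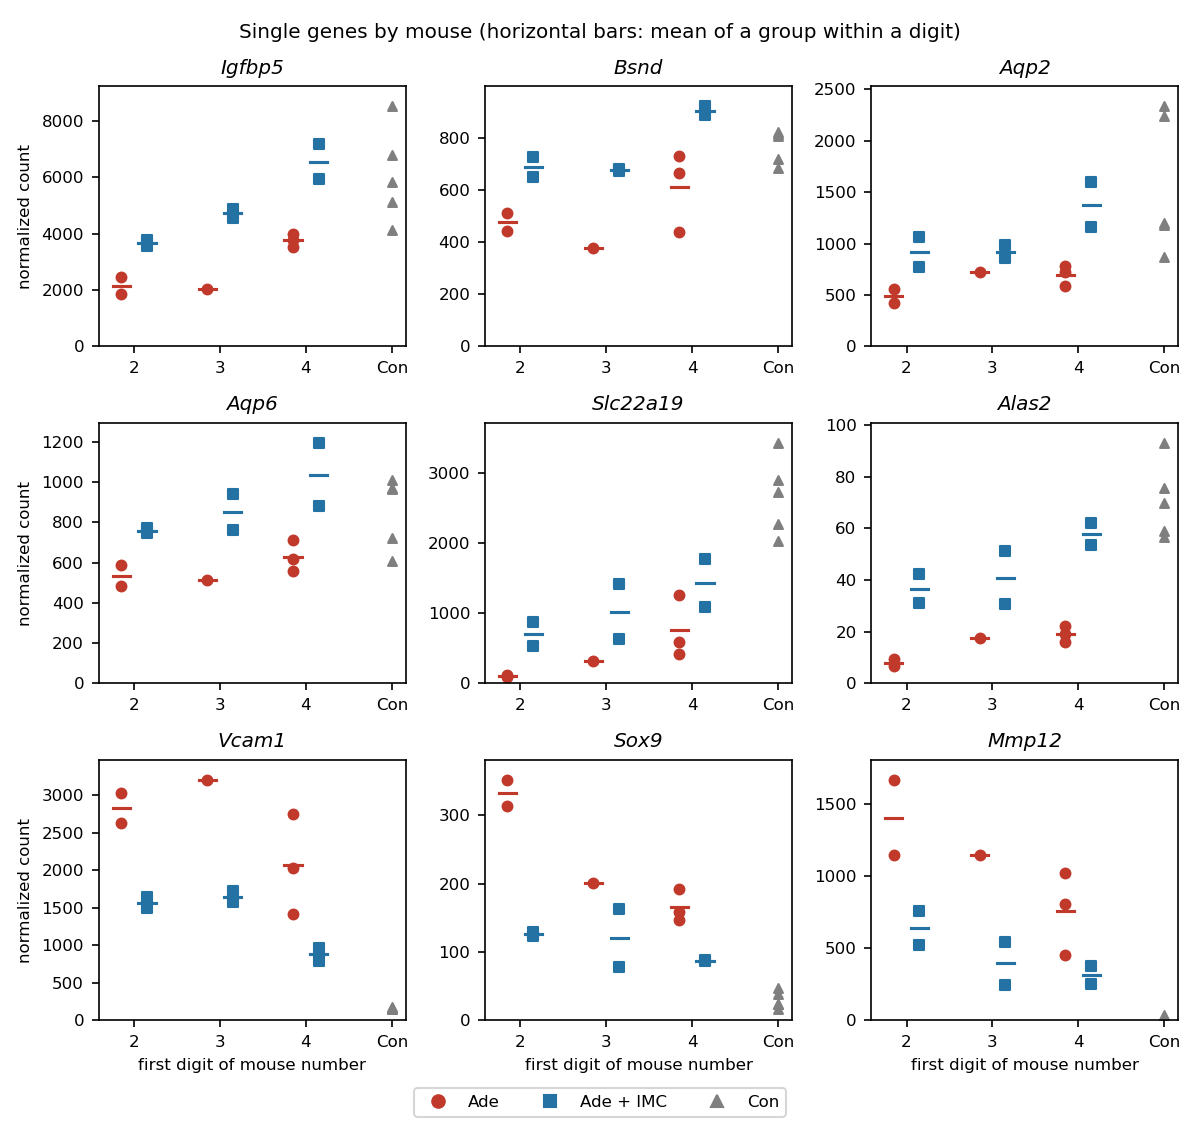
Normalized counts (linear axes from 0) of 9 genes in each mouse, by the first digit of the mouse number, with bars at the mean of a group within a digit; the Con mice, scaled from a separate table, stand to the right. For Igfbp5, Bsnd, Aqp6 and Alas2 every Ade + IMC mouse lies above the Ade mice of its digit, and for Sox9 and Vcam1 every one lies below.

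Sec14l3, Rnf24, Akr1c14 and Akr1c18 had the largest increases among the called genes named here. In these and in Slc22a19 mouse 407 stood above the other Ade mice. Slc22a19, an organic anion transporter of the S3 segment, ranged from 97.4 through 373 to 1265 normalized counts in the Ade mice and from 535 through 983 to 1778 in the Ade + IMC mice. The rise was 1.71 ± 0.34 on the log2 scale (3.27-fold, adjusted p = 0.0627). Mouse 407, at 1265, lay above 4 of the Ade + IMC mice. The Con mice ranged from 2030 to 3429. Sec14l3, a lipid-binding protein, rose by 2.49 ± 0.49 (5.63-fold, adjusted p = 0.0627), with 5.67 to 44.3 normalized counts in 5 Ade mice, 266 in mouse 407 and 72.3 to 285 in the Ade + IMC mice. Akr1c14 and Akr1c18, aldo-keto reductases that act on steroids, rose by 1.97 ± 0.35 (adjusted p = 0.0602) and 1.91 ± 0.38 (adjusted p = 0.0627). Rnf24, a RING finger protein, rose by 2.02 ± 0.40 (adjusted p = 0.0627), and 17.7% of its exonic bases lie opposite Pank2 and Gm14233. By edgeR with the block, Sec14l3 (adjusted p = 0.170), Slc22a19 (0.102) and Akr1c18 (0.102) did not pass the threshold. The Akr1c genes are near copies of one another, and reads could be split between them.

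The list of 8 late proximal tubule genes had 7 tested, all with log2 changes above 0, a median of 0.67 and 1 called. Slc22a7, the list's other strongly changing transporter, had a log2 change of 1.80 ± 0.44 that did not pass the test (adjusted p = 0.114). All 16 genes shared by the whole proximal tubule had log2 changes above 0 (0.28 to 1.87), with a median of 0.59 and 0 called. They included Hpd, of tyrosine breakdown (1.87 ± 0.43, adjusted p = 0.102), Ass1, of arginine synthesis (0.81 ± 0.19, adjusted p = 0.109), and the gluconeogenic Pck1 (0.42 ± 0.25, adjusted p = 0.493). The early proximal tubule list had a median of 0.15, and 7 of its 10 genes were above 0. Slc5a2 and Slc5a12, the sodium-coupled transporters of glucose and lactate, had log2 changes of -0.12 ± 0.15 and -0.31 ± 0.18, and the bicarbonate transporter Slc4a4 one of 0.02 ± 0.20 (adjusted p = 0.975). The difference between the early and late lists was not tested.

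The mice of the Ade group spread widely on these lists. The score of the whole proximal tubule ranged from -1.30 through -0.19 to 0.88 in the Ade mice, from -0.23 through 0.27 to 0.77 in the Ade + IMC mice and from 1.84 to 2.15 in the Con mice. The highest of the 12 adenine-fed mice was mouse 407 of the Ade group, and the lowest were mice 207 and 208. The median change was 1.08 within the digit 2, 0.44 within the digit 3 and 0.18 within the digit 4. The same order held for the podocyte list, whose 10 genes had a median of 0.55 with 0 called and medians of 1.25, 0.49 and 0.05 within the digits. Podxl (podocalyxin, the surface sialoprotein of podocytes) had 1041 normalized counts in mouse 207 and 2011 in mouse 208 against 3447 and 3631 in the Ade + IMC mice of the same digit. Its log2 change was 0.63 ± 0.25 (adjusted p = 0.290), which passed by array weights (0.0625).

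Enzymes of the proximal tubule that were named after their values were seen rose in the same manner. Aadat, of lysine and tryptophan breakdown, rose by 1.69 ± 0.36 on the log2 scale (3.22-fold, adjusted p = 0.0858), from a median of 1432 to one of 3424 normalized counts, below the 13640 to 18360 of the Con mice. The brush border peptidases Mep1b and Dpep1 rose by 1.53 ± 0.33 (adjusted p = 0.0866) and 1.10 ± 0.23 (adjusted p = 0.0675). Acadm, the medium-chain enzyme of fatty acid oxidation, rose by 1.02 ± 0.23 (adjusted p = 0.0974). Each was highest among the Ade mice in mouse 407. By edgeR with the block all 4 were just above the threshold (adjusted p of 0.115 for Aadat, 0.122 for Mep1b, 0.111 for Dpep1 and 0.135 for Acadm).

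The remaining segment lists held 0 genes called by limma with the block. The distal convoluted tubule list (9 genes) had a median log2 change of 0.30, and its salt transporter Slc12a3 one of 0.30 ± 0.21 (adjusted p = 0.576). Pvalb, a calcium-binding protein of the early part of that segment, had the largest change of the list (1.16 ± 0.35, adjusted p = 0.171). The connecting tubule list (6 genes) had a median of 0.28, with calbindin (Calb1) at 0.46 ± 0.16 (adjusted p = 0.217), which passed with the block by DESeq2 (0.0982) and by array weights (0.0470). The macula densa list (5 genes) had a median of 0.29. Robo2 of this list (0.60 ± 0.19, adjusted p = 0.183) passed with the block by DESeq2 (0.0769) and by array weights (0.0391). Pappa2, a protease of this list, had a log2 change of 0.29 ± 0.35, and its Ade + IMC mice spanned the whole range of the Ade mice. Other genes that the naming rule took from the segment lists were not called, with log2 changes of 0.75 for the anion transporter Slc22a8, 0.31 for kallikrein Klk1, 0.26 for the proton pump subunit Atp6v1b1, 0.19 for the bicarbonate transporter Slc4a9, 0.17 each for Tmem52b and the podocyte protein Synpo, and 0.10 for Atp11a. Over all 13 nephron lists, 113 of 116 genes were tested, of which 8 (7.08%) rose and 0 fell. Of the 113, 103 had log2 changes above 0, with a median of 0.41. Changes were above 0 within all digits for 53.1% of them and below 0 within all for 1.77%, beside 17.7% and 16.3% of all genes. The genes of a list share the same mice and often the same cells, so these shares describe the lists and are not a test.

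**Figure D3:**
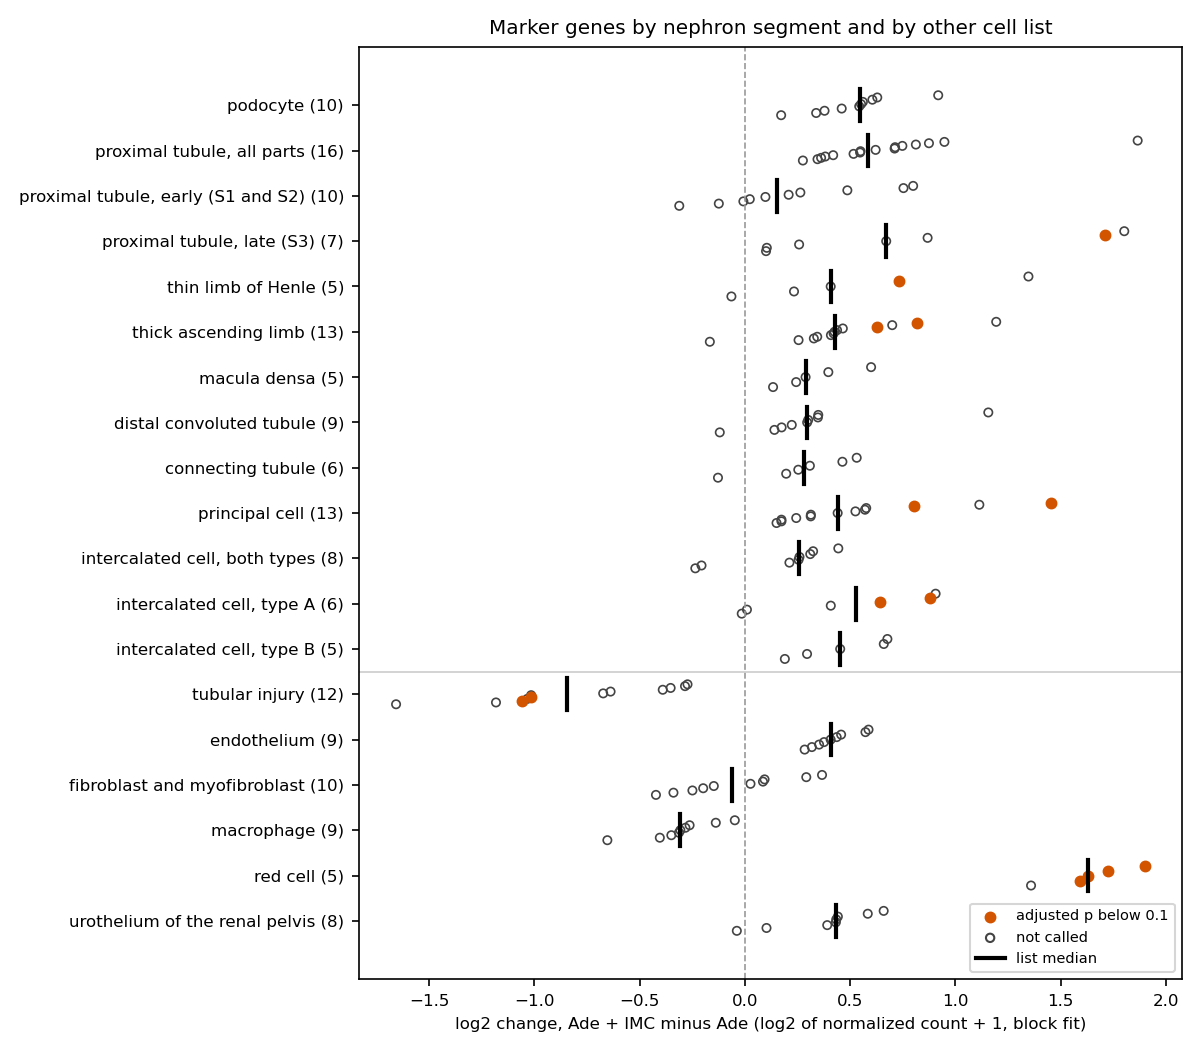
Log2 change (Ade + IMC minus Ade, block fit) of every tested marker gene, by nephron segment above the line and by other cell list below it, with the number of tested genes in brackets; filled points have an adjusted p below 0.1 and bars are list medians. The medians of all 13 nephron lists lie above 0, between 0.15 and 0.67, and that of the tubular injury list lies at -0.84.

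**Figure D4:**
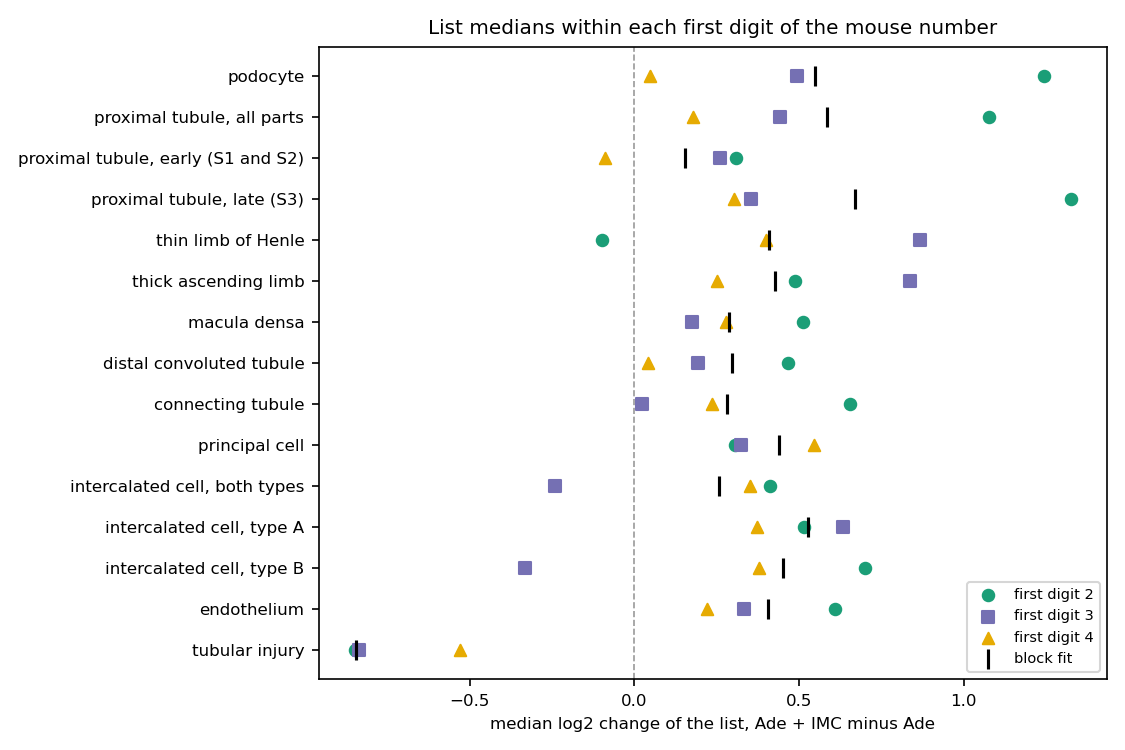
Median log2 change of each list computed within the first digits 2 (circles), 3 (squares) and 4 (triangles), with the block fit as a bar. The podocyte and whole proximal tubule lists spread from 1.25 to 0.05 and from 1.08 to 0.18 over the digits, and the principal cell list from 0.31 to 0.55.

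Among the lists of other cell types, only the red cell list held genes called by limma with the block. Of the 5 red cell genes 4 rose and 0 fell, and the list median was 1.63. Alas2, which begins haem synthesis in red cell precursors, ranged from 6.62 through 16.9 to 22.1 normalized counts in the Ade mice and from 30.7 through 46.6 to 62.2 in the Ade + IMC mice. The groups did not overlap, and the rise was 1.63 ± 0.21 on the log2 scale (3.10-fold, adjusted p = 0.0404). It rested on 7 to 24 reads a library in the Ade mice, and 15.5% of its exonic bases overlap Apex2 and Mir3620 on the other strand. The haemoglobin genes Hbb-bs (1.73 ± 0.24, adjusted p = 0.0426), Hbb-bt (1.90 ± 0.38, adjusted p = 0.0627) and Hba-a1 (1.59 ± 0.32, adjusted p = 0.0639) rose as well. Near-identical copies of these genes could exchange reads, and Hba-a1 was named after its values were seen. Summed over the list, red cell genes reached 117 to 764 normalized counts in Ade mice, 603 to 1664 with IMC and 1395 to 1866 in Con mice. Tfrc, the transferrin receptor for iron uptake, rose by 0.52 ± 0.11 (adjusted p = 0.0883), but did not pass by edgeR with the block (0.115), and was named after its values were seen.

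All 9 endothelial genes had log2 changes above 0 (0.28 to 0.59), with a median of 0.41 and 0 called. Vegfa, the endothelial growth factor made by podocytes and tubules, rose by 0.42 ± 0.09 (1.34-fold, adjusted p = 0.0906), from a median of 1878 to one of 2321, but did not pass by edgeR with the block (0.115). Lpl, the lipoprotein lipase, rose by 0.95 ± 0.19 (1.94-fold, adjusted p = 0.0627). Hsd11b1, which regenerates active glucocorticoid, rose by 0.63 ± 0.12 (1.55-fold, adjusted p = 0.0602). All 3 were named after their values were seen. Fat cell genes differed widely between mice, with a list score from -3.10 to 3.01 in the Ade mice and from -3.05 to 4.92 in the Ade + IMC mice. They also had medians of 2.30, -2.67 and 2.77 within the digits 2, 3 and 4. Lpl is a fat cell gene too, and the part of adhering fat in its change was not tested. Urothelial genes of the renal pelvis varied likewise (medians of -0.15, -0.90 and 1.61 within the digits), which bears on medullary genes sampled with the pelvis and was not tested.

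**Figure D5:**
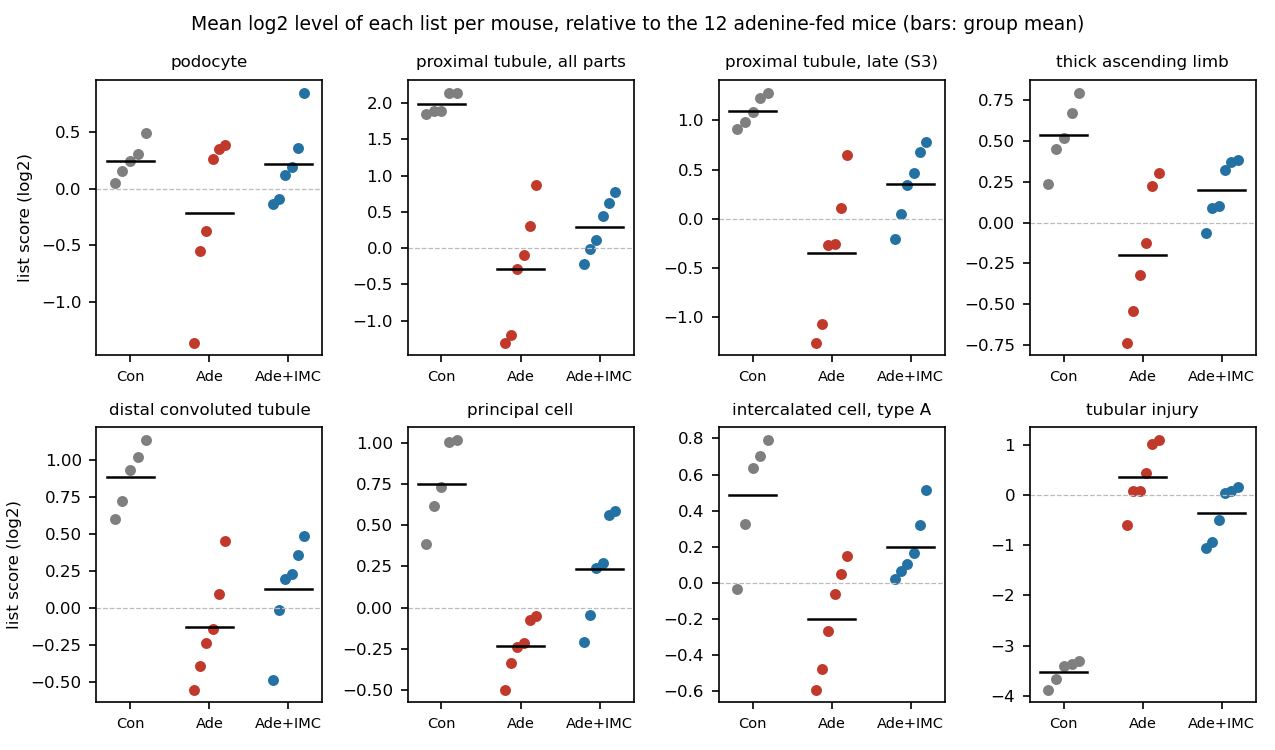
List score (mean log2 level of a list's genes relative to the 12 adenine-fed mice) of each mouse for 8 lists, with the Con, Ade and Ade + IMC mice side by side and bars at group means. The scores of Ade and Ade + IMC overlap in every panel, and those of Con reach 1.84 to 2.15 for the whole proximal tubule and -3.89 to -3.32 for tubular injury.

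Injury genes of the tubule had log2 changes below 0, of which those of Vcam1 and Sox9 passed the test by limma with the block. Vcam1, an adhesion molecule that injured proximal cells and endothelium carry, ranged from 1416 through 2697 to 3207 normalized counts in the Ade mice and from 794 through 1539 to 1721 in the Ade + IMC mice. Only mouse 407 of the Ade group lay within the range of the Ade + IMC mice. The fall was -1.02 ± 0.14 on the log2 scale (2.02-fold, adjusted p = 0.0426). Sox9, a transcription factor of repairing tubule cells, ranged from 147 through 197 to 352 in the Ade mice and from 77.5 through 105 to 163 in the Ade + IMC mice. It fell by 1.06 on the log2 scale (SE 0.17, adjusted p = 0.0599). Both remained above the Con mice, which lay between 148 and 184 for Vcam1 and between 16.2 and 46.9 for Sox9. All 12 genes of the injury list had log2 changes below 0 (median -0.84), of which 2 fell, Vcam1 and Sox9, and 0 rose. Krt20 (-1.66 ± 0.43, adjusted p = 0.132) and Havcr1 (-1.18 ± 0.42, adjusted p = 0.236) had larger changes that did not pass the test by limma. Havcr1 passed by array weights (0.0392) and not by DESeq2 with the block (0.334).

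Ubd, a ubiquitin-like protein induced by interferon and tumour necrosis factor, ranged from 66.5 through 120.0 to 185 normalized counts in the Ade mice and from 29.0 through 53.8 to 94.5 in the Ade + IMC mice. The fall was -1.18 ± 0.19 on the log2 scale (2.27-fold, adjusted p = 0.0599). Il34, a ligand of the macrophage receptor for colony-stimulating factor, fell by 0.70 on the log2 scale (SE 0.12, adjusted p = 0.0602). Cxcl17, a chemokine, and Cfi, complement factor I, fell by 1.68 (SE 0.33) and 1.32 (SE 0.26), both at an adjusted p of 0.0627. Mmp12, the macrophage elastase, ranged from 454 through 1081 to 1663 in the Ade mice and from 248 through 447.8 to 755 in the Ade + IMC mice. It fell by 1.30 (SE 0.24, 2.45-fold, adjusted p = 0.0602). The 9 macrophage marker genes, for comparison, had log2 changes below 0 with a median of -0.31 and 0 called, and Csf1r had one of -0.05 ± 0.12.

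Sbno2, a nuclear corepressor, fell by 0.43 on the log2 scale (SE 0.08, adjusted p = 0.0602). The remaining genes of this paragraph were named one by one after their values were seen and stand for no pathway. The cytokines Lif (-1.09 ± 0.24, adjusted p = 0.0883) and Clcf1 (-0.61 ± 0.13, adjusted p = 0.0817) fell. Socs3, an inhibitor of cytokine receptors, fell by 0.57 on the log2 scale (SE 0.12, adjusted p = 0.0627), from a median of 575 to one of 445 normalized counts, with 20.6 to 41.6 in the Con mice. Relb, a subunit of nuclear factor kappa B (NF-kB) (-0.56 ± 0.12), Bcl3, a nuclear cofactor (-0.60 ± 0.13), and Birc3, an inhibitor of apoptosis (-0.54 ± 0.12), fell with adjusted p of 0.0883, 0.0861 and 0.0883. The receptor Tlr2 (-0.68 ± 0.14) and the adhesion molecule Icam1 (-0.49 ± 0.09) both fell with an adjusted p of 0.0627. Gm47079 lies opposite 11.7% of the exonic bases of Icam1.

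To show the sequence before the start of such genes, RefSeq promoter windows (build GRCm38.p6, from 250 bases before to 50 after each start, 300 in all) were searched on both strands for the NF-kB consensus, for TTCNNNGAA (a motif of STAT factors) and for CACGTG (the E-box). The latter 2 read alike on both strands. Of the 60 genes called lower, 43 had a window, and 6 of these (14.0%) held the NF-kB consensus, beside 12% of the 50 windows of genes called higher and 6.41% of all 11169 windows. TTCNNNGAA stood in 9.30%, 6% and 8.37% of these windows. The windows shown for the genes that fell have the match in capitals and are written along the gene's strand.
Ubd, chr17:37193857-37193891, + strand, NF-kB consensus ending 5 bases before the start, upstream of the first exon: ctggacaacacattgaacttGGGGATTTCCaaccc
Sbno2, chr10:80075589-80075638, - strand, NF-kB consensus (matched on the opposite strand), inside the span of the gene and in no annotated exon: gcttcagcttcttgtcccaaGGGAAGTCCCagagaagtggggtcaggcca
Icam1, chr9:21015878-21015926, + strand, TTCNNNGAA, upstream of the first exon: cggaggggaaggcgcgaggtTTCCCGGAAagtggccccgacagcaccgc
Socs3, chr11:117969492-117969540, - strand, TTCNNNGAA, inside the span of the gene and in no annotated exon: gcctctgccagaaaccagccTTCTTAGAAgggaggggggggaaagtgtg
CACGTG stood in 12% of the windows of genes called higher, 14.0% of those called lower and 11.4% of all windows. These shares were close to one another. Among the genes called higher it stood in the windows of Acsm5, Aqp2, Aqp6, Bcar3, Rap1gap and Tmem47. The windows of Aqp2 and Aqp6 are shown as examples.
Aqp2, chr15:99578978-99579023, + strand, 52 bases before the start: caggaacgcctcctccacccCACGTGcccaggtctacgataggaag
Aqp6, chr15:99601151-99601196, + strand, 23 bases before the start: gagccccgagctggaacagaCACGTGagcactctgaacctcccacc
A match describes these letters and was not tested as a binding site.

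Further genes with small p-values or large changes also fell. Myc, the growth regulator, ranged from 219.5 through 316 to 462 normalized counts in the Ade mice and from 147 through 235 to 262 in the Ade + IMC mice, and fell by 0.63 on the log2 scale (SE 0.10, adjusted p = 0.0599). Runx1, a transcription factor seen in injured tubules, fell by 0.54 (SE 0.09, 1.46-fold, adjusted p = 0.0599), with 203.8 to 289 in the Ade + IMC mice and 19.7 to 29.4 in the Con mice. Nek6, a mitotic kinase, fell by 0.54 (SE 0.09, adjusted p = 0.0599), Creb5, a transcription factor, by 1.01 (SE 0.17, adjusted p = 0.0602), and Glipr2, a Golgi membrane protein, by 0.54 (SE 0.10, adjusted p = 0.0602). The mitotic genes Cdk1 (-0.80 ± 0.18, adjusted p = 0.0906) and Cenpf (-0.63 ± 0.13, adjusted p = 0.0697), named after their values were seen, fell as well. By edgeR with the block Cdk1 did not pass the threshold (adjusted p = 0.102). Both were higher in mouse 311 than in the other 5 Ade + IMC mice. Sorcs1, a sorting receptor, Gxylt2, a glycosyltransferase, and Cftr, the chloride channel, fell by 1.26 (SE 0.23), 1.26 (SE 0.24) and 1.23 (SE 0.23), with adjusted p of 0.0602, 0.0627 and 0.0602. For each, 5 of the 6 Ade + IMC mice lay below every Ade mouse. Cftr ranged from 35 to 96.4 normalized counts in the Ade mice, from 15.7 to 40.9 in the Ade + IMC mice and from 21.7 to 84.8 in the Con mice, so that its Ade + IMC mean (26.3) lay further from the Con mean (50.5) than its Ade mean (60.8). Sorcs1 and Gxylt2 remained above the Con mice in both groups.

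The kidney genes that the study names for inflammation and fibrosis were not called by limma or edgeR with the block, and some were called by other fits with the block. Wfdc2 and Timp1 were named in the study from its RNA-seq result on these same samples, so their direction is not independent evidence. Ccl2, Ccl20, Lcn2, Col1a1 and Col3a1 were measured there by qPCR, in more mice per group than were sequenced. In that assay each was significantly lower with IMC. The mice came from the same cohort, so the direction of these genes is not independent either. All 7 genes had log2 changes below 0, with a median of -0.67. Timp1, an inhibitor of matrix proteases, had a log2 change of -1.03 ± 0.28 (adjusted p = 0.141), the chemokine Ccl2 one of -0.69 ± 0.20 (0.155) and the chemokine Ccl20 one of -0.95 ± 0.28 (0.165). Lcn2, an injury protein that binds siderophores, had a log2 change of -0.67 ± 0.27 (0.293), and Wfdc2, a small secreted protein of distal epithelium, one of -0.39 ± 0.16 (0.286). Of the collagen chains, Col3a1 had a log2 change of -0.42 ± 0.13 (0.180) and Col1a1 one of -0.25 ± 0.12 (0.402). Both chains lay between 3586 and 7967 normalized counts in all 12 mice, against at most 450.1 in the Con mice. With the block, DESeq2 called Timp1 (adjusted p = 0.0217), Ccl2 (0.0403), Col3a1 (0.0481) and Ccl20 (0.0831) lower. Limma with array weights called Timp1 (0.0241), Ccl20 (0.0471), Col3a1 (0.0594), Ccl2 (0.0702) and Lcn2 (0.0733). The 10 fibroblast genes had a median of -0.06.

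Nr1d1, a repressor of the circadian clock, was the clock gene that rose. It ranged from 453.8 through 577 to 630 normalized counts in the Ade mice and from 636 through 766 to 898 in the Ade + IMC mice, without overlap. The rise was 0.47 ± 0.10 on the log2 scale (1.39-fold, adjusted p = 0.0883), and 8.55% of its exonic bases lie opposite Thra. The other 18 tested clock genes were not called, and the list had a median of 0.14. Arntl, the clock's activator, had a log2 change of -0.07 ± 0.16 (adjusted p = 0.889), and Dbp, an output gene, one of 0.41 ± 0.21 (adjusted p = 0.429).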

How the data were processed

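Kidney RNA was sequenced by the authors as 1 library a mouse (Illumina TruSeq). The paper's methods name STAR and mm10, and the submitters' processing notes name Trimmomatic 0.39, FastQC 0.11.8, Bowtie2 2.2.5 and HTSeq 0.9.1. Neither the strand setting nor the gene annotation is given in the sources used here. Values of the 12 adenine-fed mice were deposited as a signal (reads per gene over DESeq2's median of ratios size factor), and those of the Con and Ade mice were deposited as a raw count per gene. A further deposited table holds the authors' own fold changes and p-values and was not used. Every column matched 1 sample.

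All values (100%) were whole multiples of 1 read (tolerance 1e-06), and the reads recovered for the Ade mice differed from the raw counts in 0 values over 20634 genes. No 2 libraries were alike within counting noise (lowest chi-square over degrees of freedom 9.72). Of 21287 genes, 14696 whose normalized count averaged 10 or more were tested. The log2 of normalized count + 1 was fitted by limma 3.58.1 (trend), blocked on the first digit of each mouse's number, with Benjamini-Hochberg adjustment, and called at an adjusted p below 0.1. A fold change on this scale understates that of low genes. Deviations of same-digit mice from their group means correlated over genes at 0.36, 0.37 and 0.20 for the digits 2, 3 and 4. Between different digits the values ran from -0.47 to 0.16, the highest for Ade digit 4 with Ade + IMC digit 3. Each same-digit value was over 0.1, but so was that highest value between different digits. Deviations from a group mean are also not independent of one another. These values therefore cannot decide whether the digits pair the mice, and the digits were used as the block without such proof. What the digit stands for is not given in the labels. Con levels are raw counts divided by a size factor to the mean of the 12 adenine-fed mice. Alternatives used edgeR 4.0.16 and DESeq2 1.42.0 on the whole reads, TMM, array weights, other filters and pseudocounts and fits without the block, a mouse or a digit, in R 4.3.3. The fits were tested on simulated data.

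The members, the block and the 31 gene lists were chosen with earlier results of these data known. Of 92 genes named, 62 were named by rule: the 10 smallest p-values in each direction and the 6 largest changes among called genes, 2 to 5 genes a nephron list, up to 3 called genes of each other list, the kidney genes named in the study, and Apoe and Havcr1. The other 30 were named after their values were seen. Some list members are also given with their values. Some genes that the rule names are not reported here. Exon overlaps are from GENCODE annotation of GRCm38 and promoter windows from RefSeq.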

Additional observations from a re-analysis of the deposited data

Results flagged for a closer look

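In 16 of 184 sets of 6 mice (1 named gene in 1 group), and in 0 of 62 sets of list scores, the highest or lowest mouse lay farther from the others than Dixon's 95% limit allows. Chance flags about 1 in 20 sets, or 9 of the 184, and many of the genes were named after their values were seen. Mouse 407 of the Ade group accounted for 8 of them. It was the highest Ade mouse for Akr1c14 (348.4 normalized counts, the others 44.1 to 111.8), Sec14l3 (265.8, the others 5.67 to 44.3), Rnf24 (611.2, the others 88.1 to 213.9), Akr1c18 (907.2, the others 65.2 to 298.6), Aqp4 (220.5, the others 45.3 to 99.5), Acadm (5285, the others 1182 to 2453) and Lpl (3051, the others 1750 to 2191). It was the lowest for Tlr2 (205.4, the others 324.3 to 368.5). In each of these genes the level of mouse 407 was displaced from the other Ade mice toward the Ade + IMC mice.

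Mouse 412 of the Ade + IMC group was the highest of its group for Hbb-bs (1113 normalized counts, the others 410 to 620), Hba-a1 (204.8, the others 71.8 to 120.4), Kcnt1 (364.6, the others 130.3 to 215.7) and Slc14a2 (601.6, the others 475.2 to 511.2), and the lowest for Col1a1 (3630, the others 5322 to 6125). Mouse 310 was the highest Ade + IMC mouse for Cfi (255.6, the others 70.2 to 129.8) and Umod (48390, the others 29210 to 35830). Mouse 408 was the highest Ade mouse for Lypd2 (26.71, the others 10.4 to 13.1).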

How the results depend on the processing

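Beside the 60 genes called lower and 73 called higher with the block on the first digit, limma and edgeR without it called 0 and 0, with 988 and 985 genes at an unadjusted p below 0.05. DESeq2 without it called 16 lower and 21 higher. The edgeR and DESeq2 fits without the block were chosen after seeing the data. With the block, DESeq2 called 256 lower and 335 higher, array weights 579 and 663, and edgeR 53 and 51. Without 1 mouse the count ranged from 0 to 290 lower and from 0 to 364 higher. It was highest without mouse 407 and 0 without mouse 207, 308, 211 or 412, where 1587 to 2086 genes still had an unadjusted p below 0.05. Without the digit 2 it was 0 and 0 (966 genes at an unadjusted p below 0.05), without the digit 3 it was 92 and 61, and without the digit 4 it was 1 and 6. Fewer mice were tested in these fits, and the cause was not tested further. All 133 called genes that a fit tested kept their sign in each. TMM scaling (64 and 66 calls), the other filters and the pseudocounts left the counts within 1.5 times.

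The medians of all 13 nephron lists stayed above 0 in every fit. The yardstick for a moved list median was the residual SD of the list score after the digit and group were fitted. List medians that moved by more than this were macula densa (0.46 by DESeq2, 0.51 without the digit 4), urothelium (-0.44 without the digit 4), hypertonicity genes (0.10 at a filter of 50, 0.21 without the digit 3, 0.19 without the digit 4, and 0.21 to 0.34 without 1 mouse), adrenal cortex (-0.20 with no filter) and clock genes (0.0730 without the digit 3, and 0.0730 to 0.197 without 1 mouse).

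Changes of sign were found in genes that were not called: Synpo (-0.0218) and Slc4a9 (-0.0777) without the digit 2, Pappa2 (-0.00049 without mouse 410, up to 0.70 without another), Atp11a (-0.00438 without mouse 310, up to 0.17), Apoe (0.0621 without mouse 308 or the digit 3, down to -0.28 without another mouse), and Slc4a4 without the block (-0.0412 by limma, -0.0644 by edgeR, -0.0549 by DESeq2), without the digit 3 (-0.16) and without 1 mouse (-0.16 to 0.12).

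Genes under about 20 reads a library, such as Alas2, Cxcl17 and Sec14l3 in some mice, are measured less precisely, and 1 Ade mouse carries the digit 3.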

Other observations

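Genes that handle TMAO and choline were read as a list of 13, of which 11 were tested. Bhmt, which uses betaine, was too low in these kidneys, at no more than 21.4 normalized counts in any of the 12 mice. All 11 had log2 changes above 0 (0.03 to 0.55), with a median of 0.22 and 0 called. Fmo2 had the largest, at 0.55 ± 0.18 (limma adjusted p = 0.189), and the organic cation transporter Slc22a2 one of 0.45 ± 0.20 (adjusted p = 0.342). The list score ranged from -0.40 to 0.37 in the Ade mice, from -0.24 to 0.29 in the Ade + IMC mice and from 0.85 to 0.99 in the Con mice, so the groups given adenine overlapped.

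Among stress and immune lists, 0 of the 8 immediate early genes were called, with a median of -0.36. Atf3, a stress-induced transcription factor, had a log2 change of -0.84 ± 0.20 (adjusted p = 0.104), with -0.51, -1.46 and -0.78 within the digits 2, 3 and 4. B cell and plasma cell genes had a median of -0.41, with 1.45, -0.80 and -1.76 within the digits. Their summed level ranged from 228 to 7114 normalized counts in the Ade mice and from 462 to 20195 in the Ade + IMC mice. T cell genes had a median of -0.17, and the 2 of 5 neutrophil genes that were tested one of -0.07. The 7 measured of 13 mitochondrial genome genes had a median of 0.13, and 0 genes of these lists were called. Of the adrenal and skeletal muscle lists 1 gene each was tested, Star (0.10) and Mylpf (0.19).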
